A study of Mus musculus with 12 samples.

Results

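Genes for 38 clotting, fibrinolysis and complement proteins were followed in mouse liver over 4 time points after partial hepatectomy, the surgical removal of 2/3 of the liver. The genes were taken from a list of plasma proteins, chosen with earlier results of these data known. A probe was assigned to a gene through the RefSeq identifier the array files give for it. All 38 were on the array with 45 probes in all, out of 17004 named genes kept for testing. Of the 38, 20 belong to clotting and fibrinolysis and 18 to complement. Livers came from male wild-type C57BL/6 mice aged 6 weeks at 0, 1.5, 12 and 24 h after the operation, with 3 mice and 3 one-colour arrays at each time. The mice carried no other treatment or allele in the labels, and no sham-operated mice were analysed here, so that time after removal of liver and time after surgery cannot be told apart.

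Hepatocytes make and secrete most plasma clotting and complement proteins. Clotting is a chain of serine proteases that ends in thrombin, which turns fibrinogen into fibrin; anticoagulants restrain it, and plasmin dissolves the fibrin. Complement is started by antibody, by lectins or spontaneously through C3, and all routes lead to the membrane attack complex of the terminal components. Fibrinogen and several complement components belong to the acute phase response, in which liver cells alter their plasma protein genes after injury, largely under interleukin-6 and interleukin-1.

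Values are the log2 of an array's processed signal for a probe minus the log2 of that array's 75th percentile signal, called log2 signal here. A gene with several probes is given by its brightest one. Differences between times come from 1 limma fit over all 12 arrays and 31172 probes, and a gene is said to have risen or fallen where its Benjamini-Hochberg adjusted p was under 0.05. The 75th percentile signal was 443 to 599 on 11 arrays and 6210 on the second 24 h array, which stood apart from the others. It was also the only array with its scan time, so results are given with all arrays and, where they differ, without it. Arrays with the same scan time in the file headers were taken as 1 slide, which gave 4 slides. Slide therefore means scan time here, and a further scan of the same slide cannot be told apart from another slide. Slide 1 held the 3 arrays at 0 h and 1 at 1.5 h. Slide 2 held 2 at 1.5 h and 2 at 12 h, and slide 3 held 1 at 12 h and 2 at 24 h. All 38 genes were well above background on all 12 arrays. Of 9 hepatocyte markers, all were well above background on every array, which fits the liver label.

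At 12 h fibrinogen transcripts were higher than at 0 h, and transcripts of plasma kallikrein, heparin cofactor II, factor XI, factor VII, antithrombin and C5 were lower. None of these 6 falls passed with slide as a fixed block, a fit in which slide 1 is joined to the others by 1 array. Of the 38 genes 2 rose and 6 fell between 0 and 12 h, 21.1% of them, beside 15.3% of all probes (6.93% higher and 8.39% lower) and 17.6% of coding probes. A share near that of the array as a whole is not particular to these genes. Clotting and fibrinolysis had 2 higher and 5 lower of 20 genes (median log2 fold change -0.10), and complement none higher and 1 lower of 18 (median -0.28). The difference between these subsystems was not tested. The median log2 fold change of the 38 was -0.23 at 12 h, against 0.24 over coding probes and 0.41 over all probes. That last shift was 0.15 with quantile normalization, and the median of the 38 minus that of all probes was -0.64 with the 75th percentile and -0.36 with quantiles. The 3 arrays at 12 h did not overlap the 3 at 0 h for 25 of the 38 genes (9 above, 16 below), as for 61.3% of all probes. Without the second 24 h array, which leaves the 12 h and 0 h values as they are and lowers the estimated spread, 6 genes rose and 11 fell, beside 49.0% of all probes (32.2% higher and 16.8% lower). In whole liver RNA, fewer cells of a type and less RNA per cell cannot be told apart.

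**Figure D1:**
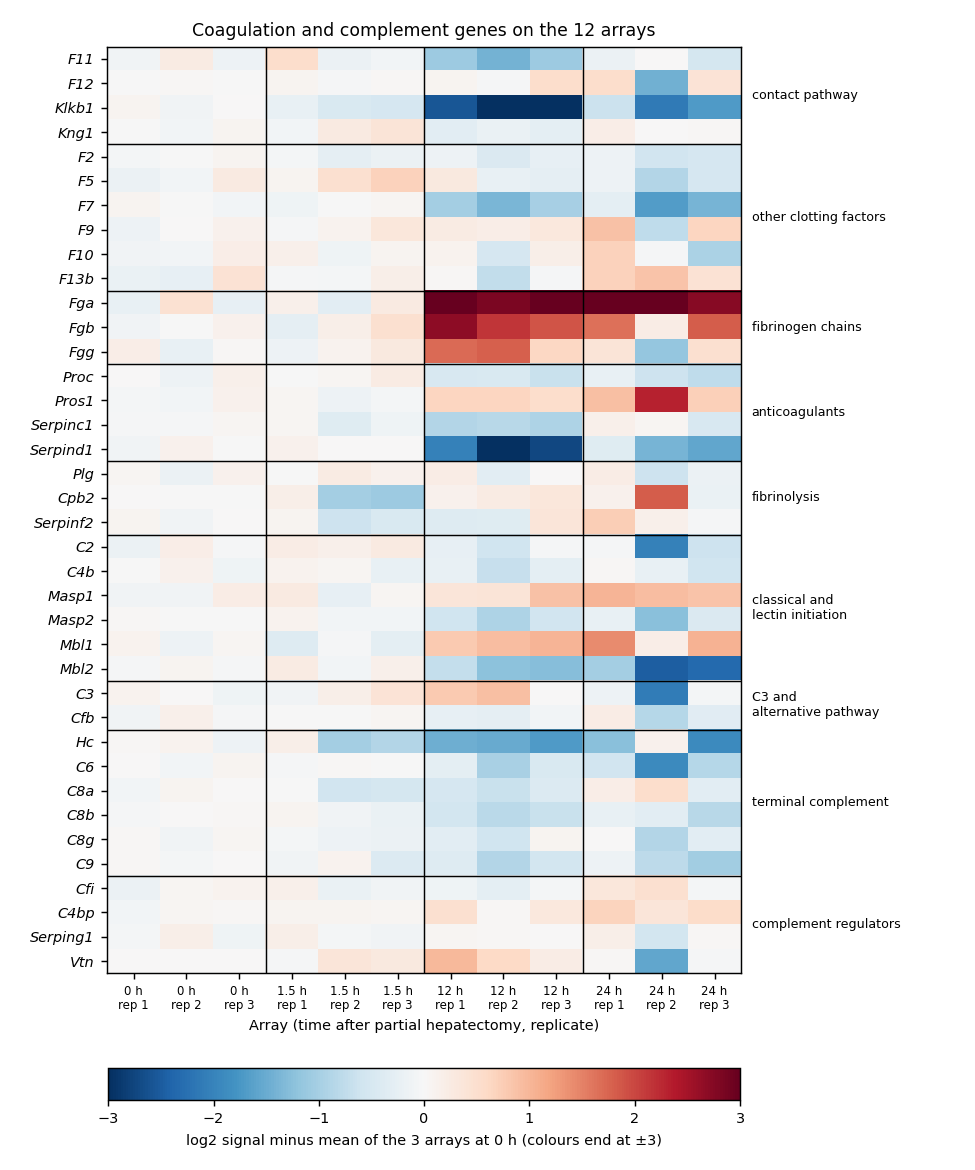
Log2 signal of each of the 38 genes on each of the 12 arrays, as the difference from the mean of the 3 arrays at 0 h, with genes in rows by subsystem and arrays in columns by time. Colours end at 3 log2 units above (red) and below (blue). Fga is red on all 6 arrays at 12 and 24 h, and Klkb1 and Serpind1 are blue on the 3 arrays at 12 h.

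The 3 fibrinogen chains, encoded by neighbouring genes on chromosome 3, were the subsystem with the highest median at 12 h, 2.24, and all 3 were above 0 with the 75th percentile, quantile normalization, normexp background correction and the authors' deposited values. Since 2 of the chains rose at 12 h and the Fgg arrays did not overlap those at 0 h, the 250 bases before each start are shown, from RefSeq on build GRCm38.p6, in the direction of transcription and with capitals on the letters CTGGGA, the core of the type II interleukin-6 response element. The windows are chr3:83025903-83026152 on the plus strand for Fga, chr3:83049864-83050113 on the minus strand for Fgb and chr3:83007474-83007723 on the plus strand for Fgg.
Fga: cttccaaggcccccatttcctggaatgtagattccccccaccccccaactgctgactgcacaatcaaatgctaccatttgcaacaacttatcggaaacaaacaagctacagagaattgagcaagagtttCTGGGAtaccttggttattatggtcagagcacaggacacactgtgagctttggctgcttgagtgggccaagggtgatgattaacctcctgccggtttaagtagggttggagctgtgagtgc
Fgb: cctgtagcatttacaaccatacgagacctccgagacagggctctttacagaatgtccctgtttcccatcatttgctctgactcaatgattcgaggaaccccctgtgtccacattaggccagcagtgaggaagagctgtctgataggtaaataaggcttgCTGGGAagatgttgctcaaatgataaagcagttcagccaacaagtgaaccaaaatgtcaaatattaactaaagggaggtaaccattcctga
Fgg: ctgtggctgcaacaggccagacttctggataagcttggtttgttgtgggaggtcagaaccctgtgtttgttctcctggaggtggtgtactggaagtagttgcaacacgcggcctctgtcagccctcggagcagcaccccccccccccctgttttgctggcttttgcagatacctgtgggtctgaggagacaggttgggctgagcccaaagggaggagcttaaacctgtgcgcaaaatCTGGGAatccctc
The element began 121 bases before the start in Fga, 91 in Fgb and 13 in Fgg. In the Fgb window a further copy lies after the start on the other strand. Fga and Fgb also hold GTTAAT, a core of sites for the liver factor HNF1, on the other strand, and the STAT motif (TTC, any 3 letters, GAA), whereas Fgg holds neither within 250 bases before and 50 after the start. Among 30 windows of 29 of the genes, searched on both strands, 16 held CTGGGA (53.3%, beside 31.8% of 32817 windows of all genes), 9 held GTTAAT (30.0% beside 7.1%) and 7 held the STAT motif (23.3% beside 8.3%). These matches are a description of letters, and no use of them in these livers was measured.

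Fga, the fibrinogen alpha chain (NM_010196), had log2 signals of 2.71, 3.39 and 2.68 at 0 h, 3.07, 2.60 and 3.19 at 1.5 h, 5.94, 5.74 and 6.17 at 12 h, and 6.18, 7.0 and 5.65 at 24 h. All 6 arrays at 12 and 24 h lay above all 6 at 0 and 1.5 h. At 12 h it was 8.14-fold higher than at 0 h (log2 fold change 3.03 ± 0.36 (SE), adjusted p = 0.000556), and its other probe gave 3.10. At 24 h the log2 fold change was 3.35 ± 0.36 (SE), adjusted p = 0.000846, and 2.99 ± 0.29 (SE), adjusted p = 0.000365 without the second 24 h array. With slide as a block, where none of the 38 genes passed at 24 h, it was 2.84, adjusted p = 0.141. Fgb, the beta chain (NM_181849), had 6.73, 6.84 and 6.97 at 0 h, 6.57, 7.02 and 7.33 at 1.5 h, 9.53, 8.99 and 8.74 at 12 h, and 8.51, 7.07 and 8.67 at 24 h. It was 4.72-fold higher at 12 h than at 0 h (log2 fold change 2.24 ± 0.41 (SE), adjusted p = 0.00526), with no overlap between the arrays. At 24 h it was above 0 h on all arrays but did not pass the test (log2 fold change 1.24 ± 0.41 (SE), adjusted p = 0.113), the second 24 h array being the lowest of the 3. Without that array Fgb rose at 24 h (1.75 ± 0.28 (SE), adjusted p = 0.00423). Fgg, the gamma chain, averaged 9.39 ± 0.65 at 12 h and 8.02 ± 0.21 at 0 h (SD, n = 3 each), with no overlap. Its log2 fold change of 1.37 ± 0.45 (SE), adjusted p = 0.0645 missed the threshold with all arrays and passed it without the second 24 h array (1.37 ± 0.30 (SE), adjusted p = 0.0052). At 24 h it was -0.10 from 0 h and 0.43 without that array, and it also lay above 0 with quantile normalization, normexp and the authors' deposited values.

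**Figure D2:**
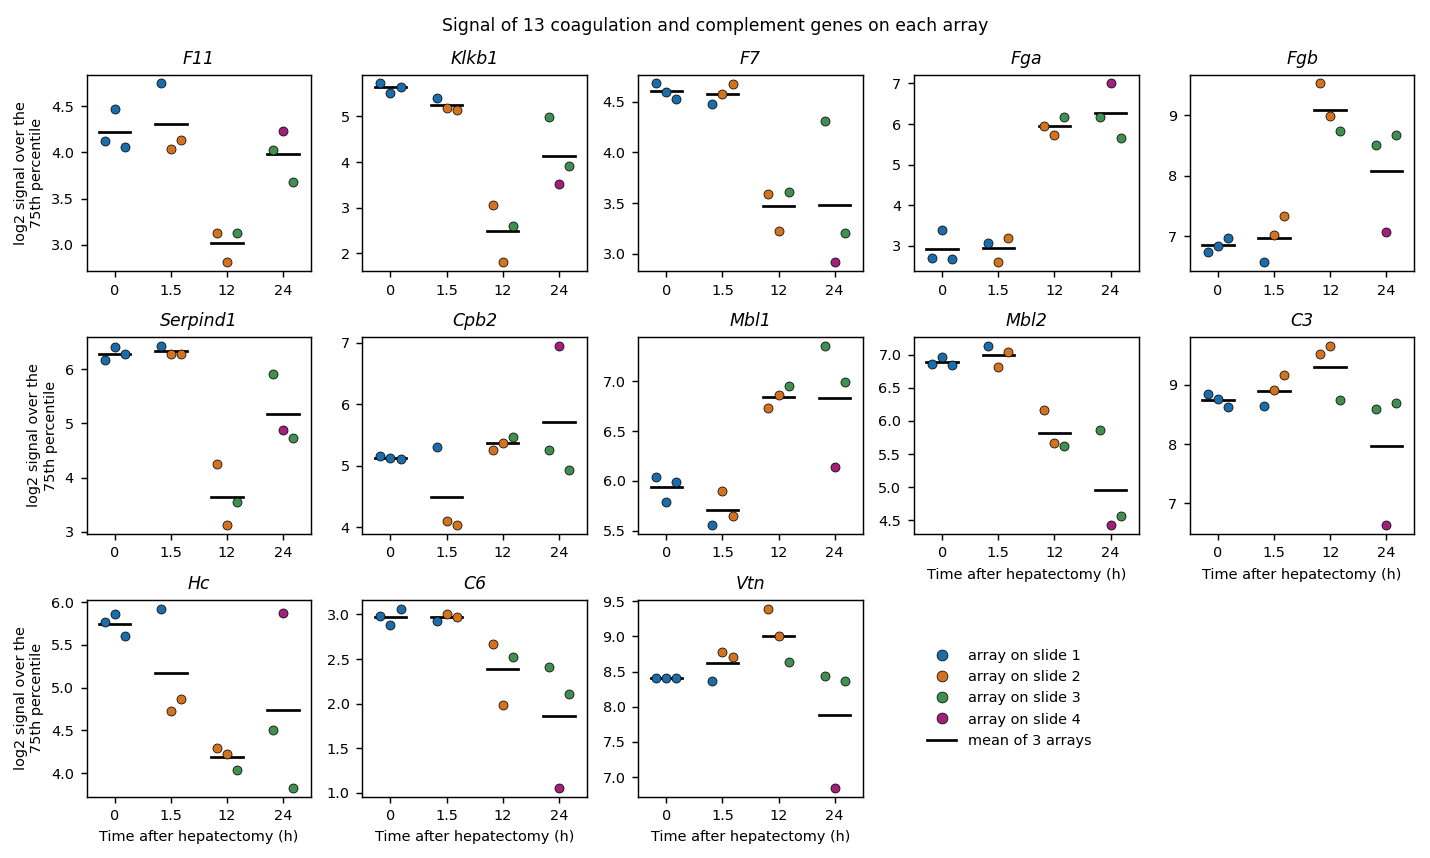
Log2 signal of 13 genes on each array against time after partial hepatectomy, with points coloured by slide and a line at the mean of 3 arrays. Fga lies at 5.65 to 7.0 on all arrays at 12 and 24 h and at 2.60 to 3.39 before, while the second 24 h array (slide 4) is the highest or lowest 24 h point in most panels.

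The contact pathway starts clotting on surfaces through factor XII, and plasma kallikrein activates factor XII and frees bradykinin from kininogen. Of its 4 genes 2 fell at 12 h, beside 8.39% of all probes. Klkb1, plasma prekallikrein (NM_008455), had 5.72, 5.52 and 5.65 at 0 h, 5.40, 5.18 and 5.13 at 1.5 h, 3.06, 1.81 and 2.59 at 12 h, and 4.99, 3.52 and 3.92 at 24 h. Its 12 h arrays all lay below those of every other time, and the level was 8.87-fold lower at 12 h than at 0 h (log2 fold change -3.15 ± 0.40 (SE), adjusted p = 0.000764). Between 12 and 24 h it rose by 1.66 ± 0.40 (SE, adjusted p = 0.03), a call that ended without any 1 of 0 h replicates 1 to 3, 12 h replicates 1 and 2 and 24 h replicate 1. Against 0 h the 24 h arrays still lay lower without passing the test (-1.49 ± 0.40 (SE), adjusted p = 0.0567). F11, factor XI (NM_028066), had 4.12, 4.47 and 4.06 at 0 h, 4.75, 4.04 and 4.14 at 1.5 h, 3.13, 2.81 and 3.13 at 12 h, and 4.03, 4.23 and 3.68 at 24 h. The 12 h arrays again lay below all others. It fell at 12 h (-1.20 ± 0.27 (SE), adjusted p = 0.0151) and was 0.96 higher at 24 h than at 12 h (adjusted p = 0.0461). That last call ends without the second 24 h array (0.84 ± 0.26 (SE), adjusted p = 0.0526), and without any other single array except 1.5 h replicate 1 and 24 h replicate 3. The fall at 12 h ended without 0 h replicate 1, 0 h replicate 2 or 12 h replicate 2 (highest adjusted p = 0.071) and was -0.59 with slide as a block. F12 and Kng1, factor XII and kininogen, differed at 12 h by 0.19 and -0.27 with adjusted p of 0.772 and 0.398.

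Among the other clotting factors, 1 of 6 fell at 12 h, beside 8.39% of all probes. F7, factor VII (NM_010172), which with tissue factor starts clotting in wounds, had 4.68, 4.60 and 4.53 at 0 h, 4.48, 4.58 and 4.67 at 1.5 h, 3.59, 3.23 and 3.61 at 12 h, and 4.31, 2.92 and 3.21 at 24 h. No array at 12 h reached the lowest one at 0 or 1.5 h. The log2 fold change at 12 h was -1.12 ± 0.33 (SE), adjusted p = 0.0438, and the call was close to the threshold, with adjusted p from 0.00686 to 0.136 when 1 array was left out. It ended without any 1 of the 9 arrays at 0, 1.5 and 12 h. With slide as a block it was -1.33, adjusted p = 0.177. At 24 h F7 was -1.12 from 0 h (adjusted p = 0.0788). Prothrombin (F2), factor V (F5), factor IX (F9), factor X (F10) and the factor XIII carrier subunit (F13b) lay between -0.28 and 0.26 at 12 h and none passed. For F2 the 95% interval of the 12 h difference was -0.77 to 0.20. F9 rose at 24 h only in the fit without the second 24 h array (0.77 ± 0.19 (SE), adjusted p = 0.024), against 0.26 ± 0.38 (SE), adjusted p = 0.725 with all arrays.

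Of the 4 anticoagulants 2 fell at 12 h, beside 8.39% of all probes, and 1 lay above 0. Serpind1, heparin cofactor II (NM_008223), an inhibitor of thrombin, had 6.17, 6.40 and 6.27 at 0 h, 6.42, 6.28 and 6.28 at 1.5 h, 4.25, 3.13 and 3.55 at 12 h, and 5.91, 4.88 and 4.73 at 24 h. The 3 arrays at 12 h lay below all 9 others, and the level was 6.21-fold lower at 12 h than at 0 h (log2 fold change -2.63 ± 0.36 (SE), adjusted p = 0.00111). It rose between 12 and 24 h (1.53 ± 0.36 (SE), adjusted p = 0.0278), a call that did not hold without 12 h replicate 2 or 3, and at 24 h did not differ from 0 h past the threshold (-1.11 ± 0.36 (SE), adjusted p = 0.105). Klkb1 and Serpind1 had the most negative differences of the 38 genes between 12 and 0 h. Serpinc1, antithrombin, averaged 3.19 ± 0.04 at 12 h and 4.08 ± 0.05 at 0 h (SD, n = 3 each). It fell by 0.88 on the log2 scale (adjusted p = 0.0328), with no overlap, and the call ended without any 1 of the 6 arrays at 0 and 12 h or 1.5 h replicate 3 (adjusted p 0.00633 to 0.107 with 1 array left out). With slide as a block it was -0.57, adjusted p = 0.4. At 24 h it was -0.09 from 0 h, and 0.14 with normexp. Proc, protein C, and Pros1, its cofactor protein S, differed from 0 h by -0.54 and 0.60 at 12 h, and passed only without the second 24 h array (adjusted p = 0.0382 and 0.0121). For Pros1 the second 24 h array read 5.34, against 3.93 and 3.73 on the other 24 h arrays.

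No fibrinolysis gene passed at 12 h or 24 h. Plg, plasminogen, differed by -0.03 at 12 h, with a 95% interval of -0.63 to 0.57. Serpinf2, the plasmin inhibitor alpha-2-antiplasmin, differed by -0.13. Cpb2, a carboxypeptidase that slows fibrinolysis, had 5.15, 5.12 and 5.11 at 0 h, 5.31, 4.10 and 4.04 at 1.5 h, 5.26, 5.37 and 5.47 at 12 h, and 5.26, 6.94 and 4.93 at 24 h. The 2 arrays at 1.5 h on slide 2 were about 1 log2 unit below the 1.5 h array on slide 1, and slide and mouse cannot be told apart there. With slide as a block Cpb2 was higher at 12 h than at 0 h (1.43, adjusted p = 0.028), against 0.24 ± 0.49 (SE), adjusted p = 0.73 without it. Within slide 2 it was 1.24, adjusted p = 0.0255 at 12 h against 1.5 h.

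**Figure D3:**
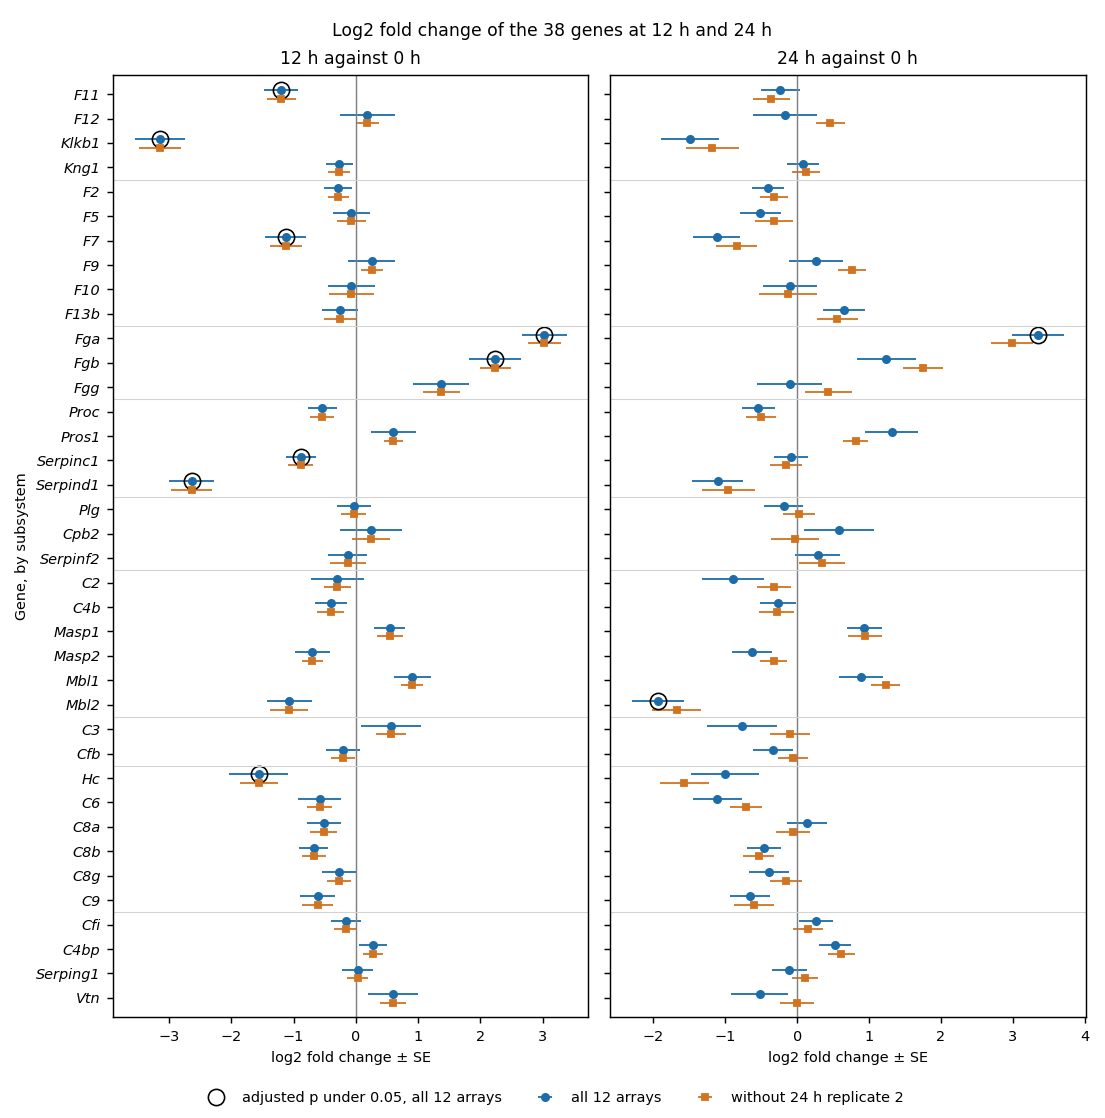
Log2 fold change with its SE for each of the 38 genes at 12 h (left) and 24 h (right) against 0 h, from the fit of all 12 arrays (circles) and the fit without the second 24 h array (squares); open rings mark adjusted p under 0.05 with all arrays. At 12 h Fga and Fgb are ringed to the right and Klkb1, Serpind1, Hc, F11, F7 and Serpinc1 to the left, and at 24 h Fga and Mbl2.

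The mannose-binding lectins, which recognise sugars on microbes, start the lectin route. Of the 2, Mbl2 fell at 24 h, and Mbl1 rose only against 1.5 h. Mbl1 (NM_010775) had 6.04, 5.79 and 5.99 at 0 h, 5.56, 5.90 and 5.65 at 1.5 h, 6.73, 6.86 and 6.95 at 12 h, and 7.35, 6.14 and 6.99 at 24 h. Its 12 h arrays lay above all arrays at 0 and 1.5 h. It rose at 12 h against 1.5 h (1.14 ± 0.30 (SE), adjusted p = 0.0413), a call that ended when any 1 of the 9 arrays at 0, 1.5 and 12 h was left out, and against 0 h it was 0.91 ± 0.30 (SE), adjusted p = 0.0666 with all arrays and 0.91 ± 0.18 (SE), adjusted p = 0.00322 without the second 24 h array. Mbl2 (NM_010776) had 6.86, 6.97 and 6.85 at 0 h, 7.13, 6.82 and 7.04 at 1.5 h, 6.17, 5.67 and 5.62 at 12 h, and 5.87, 4.43 and 4.56 at 24 h. All arrays at 12 and 24 h lay below all at 0 and 1.5 h. It fell at 24 h, to 3.84-fold below 0 h (log2 fold change -1.94 ± 0.36 (SE), adjusted p = 0.0134; -1.68 ± 0.34 (SE), adjusted p = 0.0106 without the second 24 h array), and the call did not hold without the first or second 0 h array (adjusted p 0.0019 to 0.0633 over the arrays left out). With slide as a block Mbl2 was -1.17, adjusted p = 0.623 at 24 h. At 12 h it was -1.07 ± 0.36 (SE), adjusted p = 0.0691. The lectin-associated proteases Masp1 and Masp2 were 0.54 and -0.70 at 12 h and did not pass, although the dimmer of the 2 Masp2 probes did (log2 fold change -0.91, adjusted p = 0.0396). C2 and C4b, which form the classical C3 convertase, were -0.29 and -0.40, with adjusted p of 0.625 and 0.281.

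C3, on which all complement routes meet, had 8.84, 8.76 and 8.62 at 0 h, 8.64, 8.91 and 9.16 at 1.5 h, 9.52, 9.65 and 8.75 at 12 h, and 8.59, 6.64 and 8.69 at 24 h. The first and second 12 h arrays, on slide 2, lay above all arrays at 0 h, and the third, on slide 3, lay within them. The difference at 12 h was 0.57 ± 0.49 (SE), adjusted p = 0.415, with -0.01 under both quantile normalization and the authors' deposited values, and the second 24 h array read 2 log2 units below the other 24 h arrays. Cfb, factor B of the alternative pathway, was -0.21 at 12 h, and its 2 probes differed by less than 0.05 there.

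All 6 terminal components lay below 0 at 12 h against 0 h, with a median of -0.60, against 0.24 over coding probes, and this held with quantile normalization (-0.52), normexp (-0.74) and the authors' deposited values (-0.51). Of the 6, 1 passed with all arrays, beside 15.3% of all probes, and 3 without the second 24 h array, beside 49.0%. Hc, which encodes C5, the first terminal component (NM_010406), had 5.77, 5.86 and 5.60 at 0 h, 5.92, 4.73 and 4.87 at 1.5 h, 4.29, 4.22 and 4.04 at 12 h, and 4.50, 5.87 and 3.83 at 24 h. The 12 h arrays lay below all at 0 h and at 1.5 h, while 1.5 h replicates 2 and 3, on slide 2, lay about 1 log2 unit below replicate 1, on slide 1. The log2 fold change at 12 h was -1.56 ± 0.47 (SE), adjusted p = 0.0484, and the call ended without any 1 of the 6 arrays at 0 and 12 h, 1.5 h replicates 2 and 3 and 24 h replicate 1. With slide as a block it was -0.37, adjusted p = 0.611. C6 had 2.98, 2.88 and 3.06 at 0 h, 2.93, 3.01 and 2.97 at 1.5 h, 2.67, 1.99 and 2.52 at 12 h, and 2.41, 1.06 and 2.11 at 24 h. Its 12 h arrays lay below all at 0 h, with a log2 fold change of -0.58 ± 0.34 (SE), adjusted p = 0.251, and -0.58 ± 0.20 (SE), adjusted p = 0.0363 without the second 24 h array. C8b passed only without that array (-0.68 ± 0.19 (SE), adjusted p = 0.0173), and C8a, C8g and C9 in neither fit (-0.52, -0.27 and -0.61).

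No plasma regulator of complement passed at 12 h with all arrays. Vtn, vitronectin, which blocks assembly of the terminal complex, had 8.41, 8.41 and 8.41 at 0 h, 8.37, 8.78 and 8.71 at 1.5 h, 9.39, 9.0 and 8.63 at 12 h, and 8.44, 6.85 and 8.37 at 24 h. It lay above 0 h on all 12 h arrays (0.60 ± 0.40 (SE), adjusted p = 0.308) and passed without the second 24 h array (adjusted p = 0.0396). C4bp, which binds C4b, was 0.27 at 12 h (-0.02 with normexp) and 0.53 at 24 h. Factor I (Cfi) and C1 inhibitor (Serping1) were -0.16 and 0.03 at 12 h, and Serping1 was -0.16 with quantile normalization.

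At 1.5 h none of the 38 genes differed from 0 h past the threshold in limma, beside 0.0225% of all probes, and none had an unadjusted p under 0.05. With array weights 4 passed, 1 higher and 3 lower, beside 41.4% of all probes. Groups were separated for 1 gene of 38, beside 25.7% of all probes. At 24 h 2 genes passed against 0 h, Fga higher and Mbl2 lower, 5.26% of the 38 beside 5.45% of all probes (2.83% higher and 2.62% lower). The 24 h and 0 h arrays did not overlap for 16 of the 38 genes, 6 above and 10 below, beside 27.0% of probes. Without the second 24 h array 7 rose and 2 fell, beside 17.0% of probes (10.3% higher and 6.69% lower). Those that rose were Fga, Fgb, Mbl1, Pros1, F9, Masp1 and C4bp, and those that fell were Mbl2 and Hc (-1.57 ± 0.34 (SE), adjusted p = 0.014). Between 12 and 24 h Klkb1, Serpind1 and F11 rose and no gene fell, 3 of 38 beside 12.8% of all probes (6.31% higher and 6.47% lower). Without 24 h replicate 3, 6 genes were higher and 4 lower, beside 34.2% of probes, and without 24 h replicate 2 Klkb1 and Serpind1 were higher, beside 15.8% of probes (8.55% higher and 7.24% lower). The 24 h and 12 h arrays did not overlap for 13 of the 38 genes, beside 41.5% of probes. Across the 4 times the F test called 9 of the 38 genes, beside 16.2% of all probes, and 18 without the second 24 h array, beside 44.0%.

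Against 1.5 h 3 genes rose and 3 fell at 12 h, beside 8.34% of all probes (3.29% higher and 5.05% lower). Without the second 24 h array 5 rose and 9 fell, beside 20.2% (9.69% higher), and the arrays did not overlap for 21 of the 38, beside 36.3%. Slide 2 allowed the same comparison on 1 slide, with 2 arrays at each time. There 10 of the 38 passed, 6 higher and 4 lower, beside 9.46% of probes. The 6 genes called on all slides were among them: Fga (2.95, adjusted p = 0.0193), Fgb (2.08, adjusted p = 0.0267), Mbl1 (1.02, adjusted p = 0.0397), Klkb1 (-2.72, adjusted p = 0.04), Serpind1 (-2.59, adjusted p = 0.0369) and F11 (-1.12, adjusted p = 0.0379). Leaving out 1.5 h replicate 1 ended the call of both F11 and Fgb over all slides, as did 12 h replicate 2 for F11 and 12 h replicate 1 for Fgb. These 4 arrays are part of the 6 in the comparison over all slides, so the values are not independent. Against 0 h, where slide 1 is joined to the others through 1 array at 1.5 h, 4 genes passed with slide as a fixed block, all higher: Fga (3.10, adjusted p = 0.0199), Fgb (1.81, adjusted p = 0.0313), Fgg (1.40, adjusted p = 0.039) and Cpb2. Klkb1 and Serpind1 missed the threshold there (-2.95, adjusted p = 0.0517, and -2.45, adjusted p = 0.0834). The count over all probes in that fit is given below with the other alternatives.

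**Figure D4:**
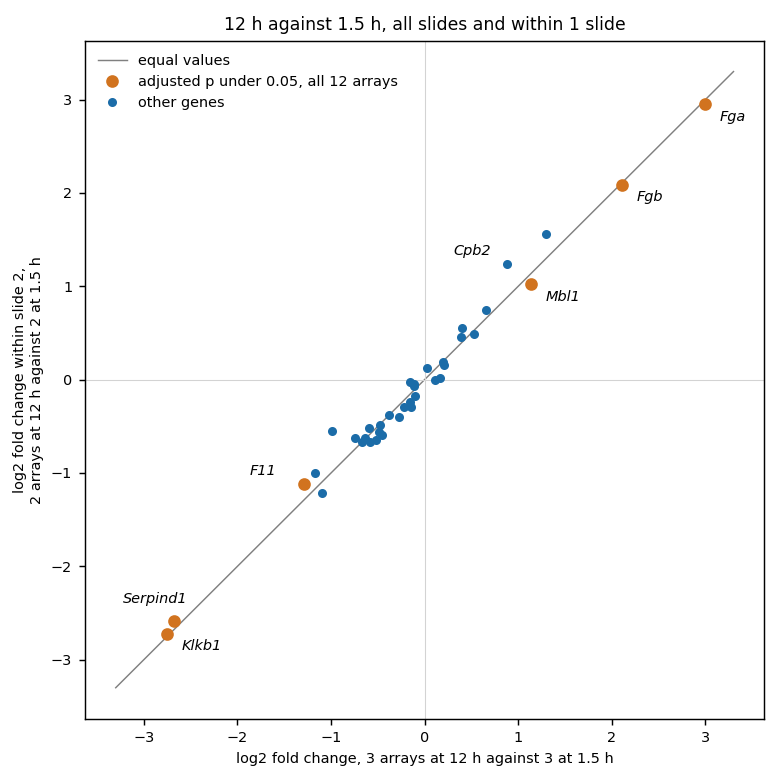
Log2 fold change of the 38 genes at 12 h against 1.5 h, over all slides on the horizontal axis and within slide 2 on the vertical axis, with the 6 genes past the threshold in orange. Points lie near the line of equal values, from Klkb1 at -2.75 and -2.72 to Fga at 3.00 and 2.95.

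Of 27 further clotting and fibrinolysis genes, many of them made by cells other than hepatocytes, 7 rose at 12 h and none fell, beside 15.3% of all probes (6.93% higher and 8.39% lower). Thrombomodulin (Thbd), an endothelial receptor that turns thrombin toward protein C, rose at 12 h (3.78 ± 0.53 (SE), adjusted p = 0.00128). The factor XIII A subunit (F13a1) rose (2.75 ± 0.38 (SE), adjusted p = 0.00123), as did the fibrinogen-like hepatokine Fgl1 (2.46 ± 0.40 (SE), adjusted p = 0.00249). At 24 h 9 of the 27 were higher and none lower, beside 5.45% of all probes (2.83% higher and 2.62% lower), among them F13a1 (2.90), Fgl1 (2.54) and Serpinb2, plasminogen activator inhibitor 2, which was not well above background at 0 h and at least 2.03-fold higher at 24 h. The fit without the second 24 h array gave 11 higher and 4 lower at 12 h, beside 49.0% of all probes, a share near it.

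Of 28 further complement genes measured, 4 rose and 3 fell at 12 h, beside 15.3% of all probes, and 6 were higher and 5 lower without the second 24 h array, beside 49.0%. Factor D (Cfd), the C5a receptor C5ar1 and the complement receptor subunit Itgam were not well above background at 0 h, and were at least 3.39-fold, 2.44-fold and 3.88-fold higher at 12 h (adjusted p = 0.0305, 0.00362 and 0.00646). Cfd was well above background on 2 of the 3 arrays at 12 h. For such genes a fold is a lower bound, the mean of the bright arrays set against the dimmest signal called well above background on the others. The inhibitor of the membrane attack complex Cd59a fell (-1.39 ± 0.25 (SE), adjusted p = 0.00483), as did the receptor subunit Itgax (-1.34 ± 0.39 (SE), adjusted p = 0.0415) and the Kupffer cell receptor Vsig4 (-1.08 ± 0.32 (SE), adjusted p = 0.0447). Cd59a and Vsig4 rose between 12 and 24 h, by 1.32 and 1.45.

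Of 20 transcription factors and cytokine receptors known to act on these genes in liver, 5 rose and 3 fell at 12 h, beside 15.3% of all probes, and 7 were higher and 5 lower without the second 24 h array, beside 49.0%. The interleukin-1 receptor Il1r1 had 1.92, 2.38 and 1.61 at 0 h, 2.82, 2.97 and 3.36 at 1.5 h, 6.12, 5.61 and 6.13 at 12 h, and 3.79, 5.48 and 3.79 at 24 h. It rose at 12 h (3.98 ± 0.44 (SE), adjusted p = 0.000342), with no overlap between 12 and 0 h. The interleukin-6 target Socs3 rose (3.79 ± 0.59 (SE), adjusted p = 0.00206), as did the oncostatin M receptor Osmr (2.78 ± 0.38 (SE), adjusted p = 0.00116) and Stat3, which carries interleukin-6 signals to the nucleus (1.54 ± 0.27 (SE), adjusted p = 0.0042). The clock factor Dbp fell (-4.29 ± 0.41 (SE), adjusted p = 0.000175), as did the pregnane X receptor Nr1i2 (-1.44) and Cebpa (-1.16). The labels give hours after the operation and no hour of day, so that the 2 cannot be told apart. At 24 h Socs3, Il1r1 and Osmr were still higher than at 0 h and Dbp lower.

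Markers of several cell types passed the test at 12 h, where 15.3% of all probes did, and 49.0% without the second 24 h array. The mean log2 signal of 9 hepatocyte markers was 5.50 to 6.01 per array at 24 h against 6.38 to 6.49 at 0 h, and 6.11 to 6.71 at 12 h, where Ttr alone passed, lower. Cps1 had no value on the second 24 h array, so the mean on that array leaves it out. The median log2 fold change of these markers at 24 h against 0 h was -0.82 with all arrays and -0.46 without the second 24 h array. Of 7 neutrophil markers 5 were higher at 12 h, with a mean over the 7 of -0.40 to 0.18 per array at 12 h against -3.04 to -2.60 at 0 h. S100a8 and S100a9 rose by 4.93 and 4.87, and Ngp was not well above background at 0 h and at least 22.2-fold higher at 12 h. Mpo (1.14, adjusted p = 0.167) and Elane (0.29, adjusted p = 0.715) did not pass. Of 7 Kupffer cell markers 1 rose and 2 fell at 12 h, and without the second 24 h array 1 was higher and 4 lower. Of 8 endothelial markers Lyve1 rose (log2 fold change 3.34) and Kdr (-2.48) and Oit3 (-0.82) fell, with a mean over the 8 of 1.28 to 1.53 at 12 h against 1.40 to 1.59 at 0 h. Of 6 stellate cell markers Lrat fell (-1.91), of 5 bile duct markers Sox9 rose (1.61), of 4 lymphocyte markers 1 fell, and of 3 erythroid markers none passed. Of 5 adipocyte markers, which include Cfd, 4 rose, with a mean of -3.0 to -1.94 at 12 h against -4.81 to -4.51 at 0 h. None of 6 platelet markers passed at 12 h (mean -1.71 to -1.41, against -1.81 to -1.71 at 0 h). The part of cell makeup in the results above was not tested.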

How the data were processed

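Liver RNA from 12 mice, 3 at each of 0, 1.5, 12 and 24 h, was hybridised to one-colour arrays, 1 per mouse. The deposited intensity files hold processed signals, already background-subtracted per the file headers, extracted with Agilent Feature Extraction 10.5.1.1 per the submitters' processing notes. Outlier spots and control spots were left out, spots of a probe were averaged, and log2 values were taken over each array's 75th percentile signal. Probes well above background on at least 3 of 12 arrays were kept, 31172 of 37246. A model with a mean for each time was applied to the 12 arrays with limma 3.58.1 in R 4.3.3 (lmFit and eBayes), with p-values adjusted by Benjamini-Hochberg over all kept probes. The p-values rest on differences among replicate arrays within each time. These differences mix mouse, slide and array, since each array held 1 mouse and arrays at 1.5, 12 and 24 h lay on more than 1 slide. Without the second 24 h array, the only one with its scan time, the probes called at 12 h against 0 h went from 4774 to 15269. The fit was tested on simulated data with independent values. The simulation held no slides and no outlying array, so it does not cover these features of the data. A value table deposited by the authors, on a log2 scale, served as an alternative, as did normexp with an offset of 50, quantile normalization, other filters, slide blocks, array weights and leaving out each array. Subsystem medians at 12 h against 0 h from the authors' table lay close to those with quantile normalization (fibrinogen 1.79 in both). The authors' table and quantile normalization therefore do not count as separate checks. Values on each array are given for the genes past the threshold with the 4 highest and 4 lowest log2 fold changes per comparison and for the gene with the smallest F-test p in each subsystem. From the further lists up to 4 genes past the threshold at each end were named, and Il1r1, the highest at 12 h in its list, is given by array. Some genes of these lists are counted but not reported here by name. The named cell marker genes were chosen after their values were seen. Symbols came through RefSeq identifiers. The 38 genes and all other lists were chosen with earlier results of these data known. The number of arrays limits the precision.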

Additional observations from a re-analysis of the deposited data

How the results depend on the processing

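Over the 19 differences of single genes that passed the threshold, 357 values under an alternative kept direction and call, 108 kept direction and lost the call, and none reversed. Of the 38 genes, 8 were called at 12 h against 0 h, and the count was 3 with normexp, 5 with no filter on dim probes, 4 with slide as a fixed block, 5 with slide as a random block, 5 with the replicate block, 20 with array weights, 17 with only the groups compared, and 4 to 17 with 1 array left out. At 24 h against 0 h, 2 were called, with 1, 7 and 9 under normexp, quantile normalization and the authors' deposited values, 5 where all 12 arrays had to be above background, 0 and 1 with the fixed and random block, 12 with array weights, 5 with robust moderation, 0 with only the groups compared, and 1 to 9 with 1 array left out. At 12 h against 1.5 h, 6 were called, with 12 and 15 under the fixed and random block, 15 with array weights, 10 within slide 2 and 3 to 14 with 1 array left out. At 24 h against 12 h, 3 were called, with 6 under the filter on all 12 arrays, 0 with the fixed block, 12 with array weights, 6 with robust moderation, 0 with only the groups compared, 0 within slide 3, and 0 to 10 with 1 array left out. At 1.5 h array weights called 4 in place of 0. For a difference at any time the count was 9, with 4 under normexp, 16 with the authors' values, 5 with the replicate block, 26 with array weights and 4 to 18 with 1 array left out. The causes were not tested. Over all probes, at 1.5 h against 0 h 7 were called, with 2 under normexp, 20 with the authors' values, 18 with the filter on all 12 arrays, 24 and 65 with the fixed and random block, 0 with the replicate block, 12904 with array weights, 15 with robust moderation, 0 with only the groups compared, 0 within slide 1, and 0 to 177 with 1 array left out. At 12 h against 0 h 4774 were called, with 673 under normexp, 1302 and 2647 with the blocks, 19764 with array weights, 15493 with only the groups compared and 2247 to 15269 with 1 array left out. At 24 h against 0 h 1698 were called, with 189 under normexp, 83 and 288 with the blocks, 8545 with array weights, 119 with only the groups compared and 415 to 5302 with 1 array left out. At 12 h against 1.5 h 2601 were called, with 495 under normexp, 4705 and 5595 with the blocks, 7642 with array weights and 1255 to 6282 with 1 array left out. At 24 h against 12 h 3983 were called, with 191 under normexp, 2584 with no filter, 1277 with the replicate block, 12411 with array weights, 0 with only the groups compared, 26 within slide 3 and 397 to 10646 with 1 array left out. The share of called probes that were higher was 45.2%, 39.4% and 49.4% at 12 h against 0 h, 12 h against 1.5 h and 24 h against 12 h, and 26.6%, 23.4% and 90.1% with normexp, while at 1.5 h it was 100% and 80% with the authors' values. Over 18 pairs of arrays with the same replicate number the correlation of deviations from group means was -0.42 to 0.41, with 2 over 0.1. Pairs with different numbers reached -0.49 and 0.51, so these correlations cannot show whether replicate numbers pair the mice.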

Other observations

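Against 1.5 h, the further clotting genes Thbd, Fgl1 and F13a1 were also higher at 12 h, by log2 fold changes of 2.53, 2.30 and 2.23. Between 12 and 24 h Tfpi2, an inhibitor of proteases in the matrix, rose by 1.26 (adjusted p = 0.0364), and Il1r1 fell (log2 fold change -1.60). The complement regulator Cd46 also fell then (-1.29, adjusted p = 0.0387). The acute phase transcription factor Cebpd passed as lower at 24 h than at 12 h (adjusted p = 0.0307), but was well above background on 1 of 3 arrays at 24 h and 2 of 3 at 12 h.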
